A study of Mus musculus with 12 samples.

Results

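Class I molecules of the major histocompatibility complex (MHC) were followed here through 9 genes, the heavy chains H2-K1, H2-D1, H2-Q2, H2-Q4, H2-Q6, H2-Q7, H2-T22 and H2-T23 and the shared light chain B2m (beta-2 microglobulin), out of 24561 genes in the count table. The members were taken by gene symbol, and the family was picked because H2-Q2 stood among the strongest decreases of the contrast between the labels. That contrast is therefore given for the members as a description without a test. Messenger RNA was measured in OT-II T follicular helper (Tfh) cells, CD4 T cells with a transgenic receptor for an ovalbumin peptide, sorted as CXCR5hiPD-1hi from the lymph nodes of recipient mice on day 3 after NP-OVA immunization (subcutaneous, with LPS in alum, a day after the cell transfer). The 3 recipients labelled wild-type had received CD4-Cre cells and the 3 labelled BCL6-insufficient had received CD4-CrexBcl6fl/+ cells, and each mouse gave 2 technical repeats of about 200 cells. Cells of both labels carried CD4-Cre, which is active from thymic development on. Recipients of both labels were CD45.1 Sap-/- mice, which lack the adaptor SAP and whose own T cells give poor help to B cells. The strain is given as C57BL/6, and how many donors supplied the transferred cells was not stated, so that donor and label cannot be told apart.

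A class I molecule is a heavy chain folded around beta-2 microglobulin and a short peptide, and it shows peptides from inside the cell to CD8 T cells and natural killer cells. H2-K1 and H2-D1 encode the classical heavy chains K and D of nearly every nucleated cell. The Q and T genes encode nonclassical heavy chains: H2-Q7 and its close relatives encode Qa-2, H2-T23 encodes Qa-1, which presents leader peptides of other class I chains, and H2-T22 encodes a ligand of some gamma delta T cells. Transcription of many class I genes runs through a short upstream region with a kappa B site, an interferon response element and an SXY module bound by RFX, CREB/ATF and NF-Y, where NLRC5 acts as coactivator.

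The promoters of 4 members are shown because H2-Q2 differed from the rest of the family in the RNA data and its upstream letters could be set beside a classical gene (H2-K1), a gene of its own cluster (H2-Q7) and the light chain (B2m). Each is the 300 bases from 250 before to 50 after the RefSeq start (GRCm38.p6), read 5′ to 3′ on the strand of the gene, and capitals mark matches on either strand to part of the kappa B site of class I enhancers (GATTCCC), the core of the interferon response element (TTTCACT), the core of the cAMP response element (TGACG), the NF-Y box (CCAAT) and the TATA box (TATAAA).
H2-K1 promoter, chr17:34000298-34000597, minus strand: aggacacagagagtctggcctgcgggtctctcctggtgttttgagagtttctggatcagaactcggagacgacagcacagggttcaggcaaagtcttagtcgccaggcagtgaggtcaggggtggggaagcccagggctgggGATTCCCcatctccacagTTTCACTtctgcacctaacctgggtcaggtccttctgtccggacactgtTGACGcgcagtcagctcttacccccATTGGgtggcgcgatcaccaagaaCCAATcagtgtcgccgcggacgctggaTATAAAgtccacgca
H2-Q2 promoter, chr17:35342057-35342356, plus strand: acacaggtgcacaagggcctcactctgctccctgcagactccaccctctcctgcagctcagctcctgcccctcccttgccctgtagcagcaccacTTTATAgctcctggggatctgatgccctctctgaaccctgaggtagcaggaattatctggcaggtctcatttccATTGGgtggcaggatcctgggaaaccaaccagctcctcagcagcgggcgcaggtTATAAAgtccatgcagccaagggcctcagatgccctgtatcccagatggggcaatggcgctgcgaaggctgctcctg
H2-Q7 promoter, chr17:35438905-35439204, plus strand: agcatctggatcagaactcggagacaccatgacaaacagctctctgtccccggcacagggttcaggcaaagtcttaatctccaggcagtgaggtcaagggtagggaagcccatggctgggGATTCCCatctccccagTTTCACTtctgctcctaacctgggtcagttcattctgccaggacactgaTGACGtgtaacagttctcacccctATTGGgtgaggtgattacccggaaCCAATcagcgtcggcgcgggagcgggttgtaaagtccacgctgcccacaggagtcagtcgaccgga
B2m promoter, chr2:122147437-122147736, plus strand: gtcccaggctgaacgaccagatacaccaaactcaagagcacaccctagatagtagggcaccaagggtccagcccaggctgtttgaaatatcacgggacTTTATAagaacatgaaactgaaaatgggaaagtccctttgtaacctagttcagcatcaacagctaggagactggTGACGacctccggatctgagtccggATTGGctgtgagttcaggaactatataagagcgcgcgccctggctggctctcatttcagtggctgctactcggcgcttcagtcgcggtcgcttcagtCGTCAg

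Of these letters, the kappa B part stood in the promoters of H2-K1, H2-D1, H2-Q6 and H2-Q7 and in 3.35% of 32544 RefSeq promoters of the same length. The interferon response core was in those of H2-K1, H2-D1, H2-Q4, H2-Q6, H2-Q7 and H2-T22 and in 4.34% of all. TGACG was in H2-K1, H2-D1, H2-Q4, H2-Q7, H2-T22 and B2m and in 20.9% of all. H2-K1 has 2 RefSeq starts, of which the upstream one is shown, and both windows held the same matches. The NF-Y box was found in the promoters of all 9 genes, against 37.4% of all promoters, and the TATA box in those of H2-K1, H2-D1, H2-Q2, H2-Q4 and B2m, against 13.6%. The window of H2-Q2 held 1 match to the NF-Y box and 2 to the TATA box and none to the other 3 motifs, and that of H2-T23 held the NF-Y box alone. A missing match says only that these exact letters are not in the window.

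Libraries held 3343375 to 8315722 counts, and the repeats of a mouse were summed to 10098419 to 14002507. The T cell genes Cd3e and Cd4 were present in all libraries at 376 to 685 and 320 to 629 normalised CPM (counts per 1000000 after TMM scaling of the library size), and of 8 tested T cell markers 1 was higher in the mice labelled BCL6-insufficient (Trac at a log2 fold change of 0.55, SE 0.09, edgeR adjusted p = 0.000151) and 3 lower (Cd4, Lck and Cd5 at -0.34, -0.33 and -0.34). Of the CD8 genes, Cd8a was at 0 in 6 of 6 libraries labelled BCL6-insufficient and in 5 of 6 labelled wild-type, whereas Cd8b1 was counted in all 12, at 19.1 to 33.0 and 23.9 to 48.6 CPM. Of 8 tested Tfh markers, 2 were higher (Bcl6, and Icos at a log2 fold change of 0.64, SE 0.10, adjusted p = 0.000147) and 3 lower (Tox2 at -0.80, SE 0.10, adjusted p = 8.01e-06, and the genes of both sort markers). Cxcr5 was at 222 to 266 CPM against 292 to 340 CPM (log2 fold change -0.40, SE 0.09, edgeR adjusted p = 0.00476), and Pdcd1 (PD-1) at 146 to 190 CPM against 164 to 286 CPM (-0.42, SE 0.10, adjusted p = 0.0042). The targeted gene went against its label at the transcript level: Bcl6 was at 150, 146 and 150 CPM in the mice labelled BCL6-insufficient and at 54.8, 75.6 and 56.9 CPM in those labelled wild-type, with a log2 fold change of 1.25 (SE 0.12, edgeR adjusted p = 6.3e-07). The counts are per gene and do not separate the floxed exons, so they check neither the deletion nor the label, and every direction below is that of the labels. In the test of all genes, 2288 of 12719 passed an adjusted p of 0.05 (18.0%), with 9.17% of the tested genes higher in the mice labelled BCL6-insufficient and 8.82% lower. On log2(TPM + 1) values the split was 390 higher and 915 lower, against 1166 higher and 1122 lower on counts.

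H2-Q2 was the member that differed most between the labels. It was at 29.1, 29.6 and 28.4 CPM in the 3 mice labelled BCL6-insufficient (400, 338 and 276 counts) and at 128, 106 and 78.3 CPM in those labelled wild-type (1394, 1196 and 1043 counts). The lowest wild-type mouse was thus above every BCL6-insufficient mouse. The SD was 24.7 CPM among the wild-type mice and 0.597 CPM among the BCL6-insufficient mice (n = 3 each). Such an SD is uncertain with 3 mice, and the repeats of BCL6-insufficient mouse 1 were at 37.9 and 22.9 CPM. The fitted log2 fold change was -1.84 (SE 0.15), a level in the BCL6-insufficient mice of 0.279 times that of the wild-type mice. In single libraries H2-Q2 ran from 22.9 to 37.9 CPM (median 27.9) under the BCL6-insufficient label and from 57.0 to 129.6 CPM (median 110) under the wild-type label, again without overlap. The lowest wild-type library, repeat 1 of mouse 3 at 57.0 CPM, had a partner repeat at 94.4 CPM.

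**Figure D1:**
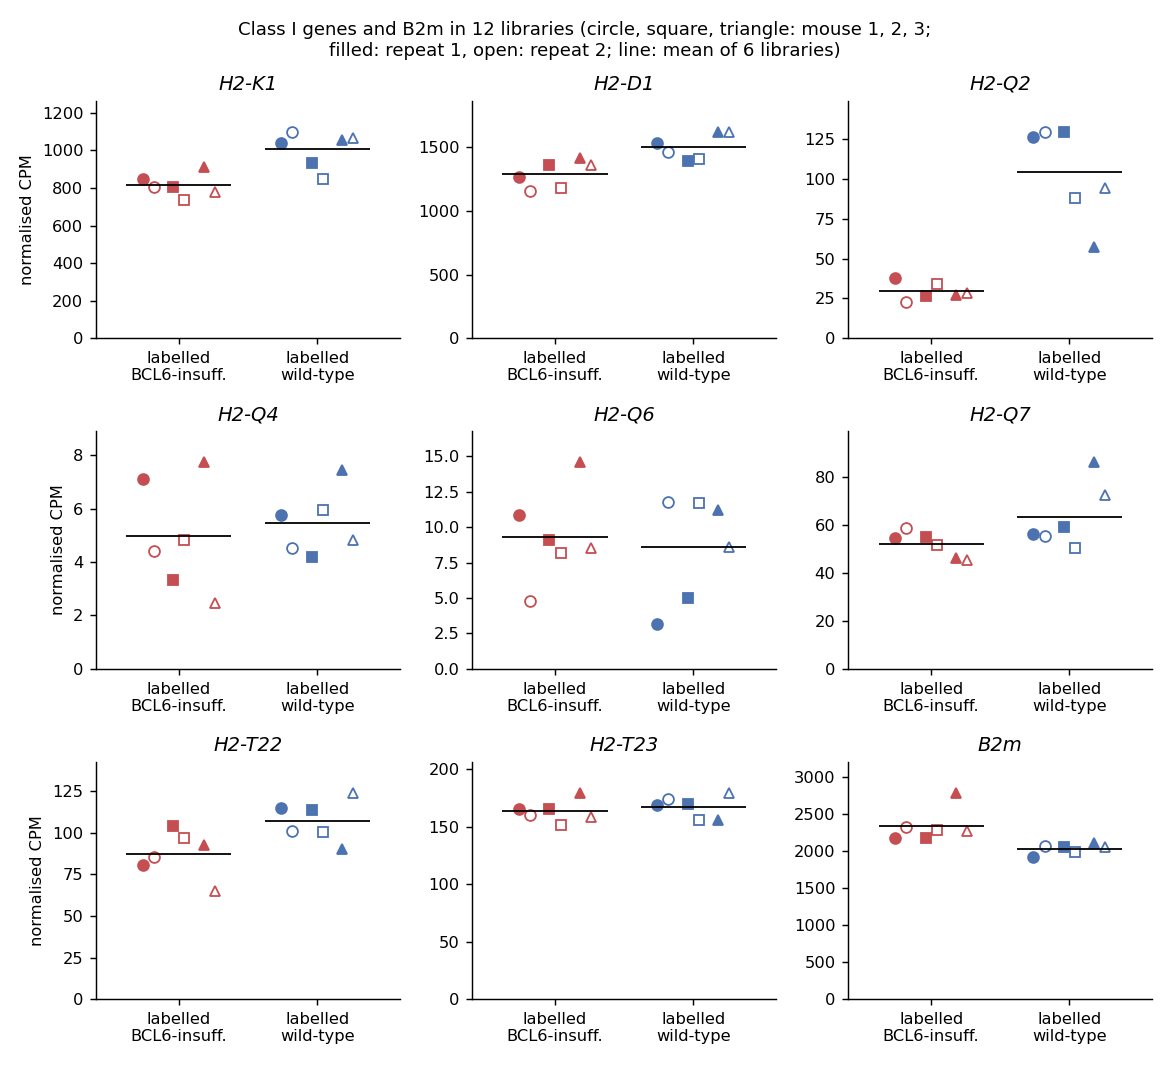
Normalised CPM of the 9 members in each of the 12 libraries, by label; shapes give the mouse, filled and open symbols the technical repeat, and the line the mean of 6 libraries. H2-Q2 lies at 22.9 to 37.9 CPM under the BCL6-insufficient label and at 57.0 to 129.6 CPM under the wild-type label, and the B2m libraries labelled BCL6-insufficient all lie above those labelled wild-type.

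The classical heavy chains were modestly lower with the BCL6-insufficient label. H2-K1 was at 823, 779 and 831 CPM against 1066, 883 and 1058 CPM, with a log2 fold change of -0.31 (SE 0.09). H2-D1 was at 1202, 1290 and 1391 CPM against 1491, 1395 and 1615 CPM, with a log2 fold change of -0.21 (SE 0.09). On log2(TPM + 1) the values of H2-K1 and H2-D1 were -0.41 and -0.33. The mice of the labels did not overlap for either gene, although for H2-D1 the highest BCL6-insufficient mouse and the lowest wild-type mouse lay within 1391 and 1395 CPM.

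Among the other Q genes, none came near the difference of H2-Q2. H2-Q7 was at 57.2, 53.9 and 46.0 CPM against 55.7, 54.1 and 78.0 CPM, with a log2 fold change of -0.26 (SE 0.15). The labels overlapped and wild-type mouse 3 stood above the rest; leaving out wild-type mouse 3 gave -0.07. H2-Q4, with 42 to 79 counts a mouse, had a log2 fold change of -0.23 (SE 0.34) and H2-Q6, with 82 to 129 counts, 0.04 (SE 0.27). H2-Q6 differed between technical repeats in opposite directions: its log2 fold change was 0.82 (SE 0.44) on repeat 1 and -0.58 (SE 0.39) on repeat 2.

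Of the T genes, H2-T22 was at 83.9, 101.5 and 74.9 CPM against 108, 106 and 110 CPM, with a log2 fold change of -0.31 (SE 0.12). Its mice did not overlap, but the libraries did, at 64.9 to 104 CPM against 90.6 to 124 CPM. H2-T23 was at 163, 160 and 167 CPM against 171, 162 and 169 CPM, the steadiest of the 9 members between mice of a label, with a log2 fold change of -0.03 (SE 0.10) that turned to 0.05 on repeat 1 alone.

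B2m was the most abundant member and lay on the other side of zero. It was at 2272, 2224 and 2467 CPM in the mice labelled BCL6-insufficient and at 1990, 2013 and 2071 CPM in those labelled wild-type, with a log2 fold change of 0.20 (SE 0.08). All 6 libraries labelled BCL6-insufficient, at 2174 to 2787 CPM, were above all 6 labelled wild-type, at 1917 to 2110 CPM. On log2(TPM + 1) the value was smaller, at 0.09.

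Over the family, 7 of 8 heavy chains had a log2 fold change below 0 (H2-T23 was at 0 to 2 decimals with upper-quartile scaling, and H2-Q6 likewise on TPM), and the median of the 9 members was -0.23, against 0.01 over all genes tested. Apart from H2-Q2, the heavy chains ran from -0.31 to 0.04. H2-K1 and H2-Q2 were the 2 of 9 members that passed the threshold of the fit, beside 18.0% of all genes, and the mice of the labels did not overlap for 5 of 9, beside 34.4% of all genes. The number of members passing ran from 1 (for example on technical repeat 1 or without wild-type mouse 1 or 3) to 5 (with a replicate block). Because the members were chosen from this contrast, nothing is read from these counts. The log2 fold change of H2-Q2 lay between -2.02 and -1.68 over the fits that lacked 1 mouse, and was -1.76 (SE 0.22) on repeat 1 and -1.87 (SE 0.18) on repeat 2.

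**Figure D2:**
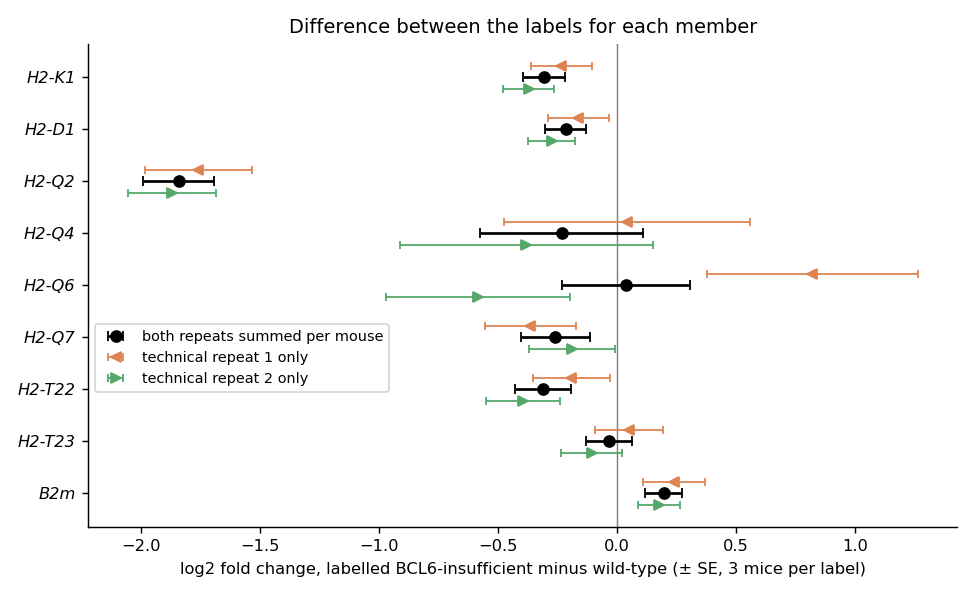
Log2 fold change of each member, labelled BCL6-insufficient minus labelled wild-type, with its standard error (3 mice per label), for the summed repeats (circles) and for each technical repeat alone (triangles). H2-Q2 stands apart at -1.84, -1.76 and -1.87, and H2-Q6 lies on opposite sides of 0 in the repeats, at 0.82 and -0.58.

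Shares of counts within a mouse do not depend on how libraries are scaled. H2-Q2 supplied 1.23, 1.22 and 1.11% of the counts of the 8 heavy chains in the mice labelled BCL6-insufficient and 4.21, 3.91 and 2.51% in those labelled wild-type. H2-K1 supplied 33.1% ± 1.39 (SD, n = 3) against 33.8% ± 1.35, and H2-D1 52.8% ± 1.91 against 50.7% ± 1.36, so the classical pair held nearly the same shares under both labels. H2-T23 supplied 6.54 to 6.88% against 5.41 to 5.94%. For each B2m count there were 1.04, 1.09 and 1.04 heavy-chain counts in the BCL6-insufficient mice and 1.52, 1.35 and 1.51 in the wild-type mice. These do not overlap, but neither did the mice of the labels for 34.4% of all genes, and no share was computed for ratios. Because the members were chosen from this contrast, nothing is read from the ratio. All 9 members together took 0.456 to 0.484% of the counts of a mouse under the BCL6-insufficient label and 0.470 to 0.534% under the wild-type label. In bulk libraries fewer cells with a transcript and less of it per cell cannot be told apart.

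Per kb of exon, the order of levels over the 6 mice was B2m, H2-D1, H2-K1, H2-T23, H2-T22, H2-Q2, H2-Q7, H2-Q6 and H2-Q4. B2m was at 2526 ± 213 CPM per kb (SD, n = 6), H2-D1 at 542 ± 56.4 and H2-K1 at 309 ± 42.5. H2-T23 followed at 57.3 ± 1.52 and H2-T22 at 28.5 ± 4.20 CPM per kb, and H2-Q7, H2-Q6 and H2-Q4 were at 13.5 ± 2.53, 4.21 ± 0.620 and 1.93 ± 0.288. The genes were sorted on these same mice, so the order is a description with no test. For 6 of 8 neighbouring pairs the first gene was above the second in 6 of 6 mice. The smallest of those steps was H2-D1 over H2-K1, at 0.82 on the log2 scale (SD 0.10). The size of a step depends on the length used. Per kb of the longest coding transcript H2-D1 was at 665 and H2-K1 at 560 CPM, and H2-Q7 at 37.7. The remaining 2 pairs hold H2-Q2, whose place follows from the difference between the labels that chose it. H2-Q2 was at 13.3 ± 0.274 CPM per kb under the BCL6-insufficient label and at 47.7 ± 11.4 under the wild-type label (n = 3 each), below H2-T22 (25.4 ± 3.96) in the first and above it (31.6 ± 0.516) in the second.

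**Figure D3:**
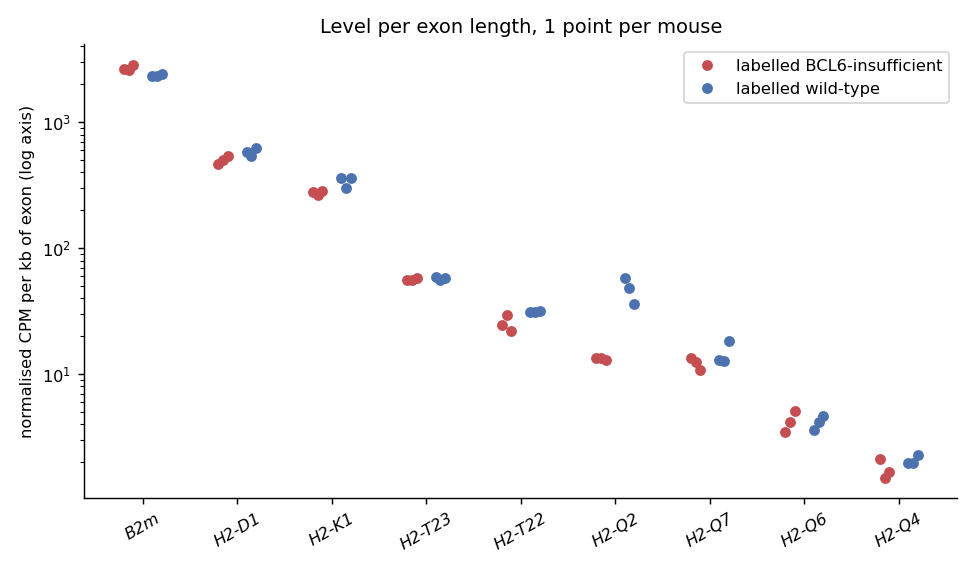
Normalised CPM per kb of exon on a log axis, 1 point per mouse, with genes in the order of their mean log level. The members span from 2526 CPM per kb for B2m to 1.93 for H2-Q4, and H2-Q2 is the gene whose labels stand on either side of a neighbour, H2-T22.

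Class I genes arose by duplication and share runs of sequence, and some overlap antisense genes. The shares below count any other gene, also antisense genes at the same place and genes outside class I. Of the 75-base windows in the transcripts of each member, 3.1% of H2-K1, 5.56% of H2-D1, 8.07% of H2-Q2 and 5.91% of H2-T23 also occurred in a transcript of another gene. The share was larger for H2-Q4 (20.7%), H2-Q6 (21.1%), H2-Q7 (17%) and H2-T22 (40%), and B2m shared none of 786 windows. The 170 shared windows of H2-Q2 all occurred in H2-Q1, and at 150 bases 2.56% of its windows were shared. H2-Q1 itself was at 4.66, 6.73 and 5.14 CPM under the BCL6-insufficient label and at 7.14, 6.58 and 7.13 CPM under the wild-type label, with a log2 fold change of -0.34 (SE 0.31, edgeR adjusted p = 0.506). The highest wild-type H2-Q1 library, at 9.59 CPM, was below the lowest H2-Q2 library, at 22.9 CPM.

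H2-T22, with 40% of windows shared, and H2-K1, with 3.1%, were both at -0.31 on the log2 scale, and the part of shared reads in the differences between the labels was not tested. In H2-T22, 25.2% of windows were shared with the antisense gene A930015D03Rik, whose exons overlap 29.4% of its exon length, and 15.7% with its near copy H2-T10. H2-Q4 overlapped the antisense gene Gm11131 over 19.1% of its exon length and shared 13.4% of its windows with that gene, against 3.43% with H2-Q6. Whether the counting used strand is not given in the sources used here, so counts of H2-Q4 and H2-T22 may include reads of the antisense genes, and values of the Q4, Q6, Q7 and T22 genes are uncertain to the extent of their shared windows.

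On GRCm38 the 8 heavy chains lie on chromosome 17 and are all annotated as protein-coding. H2-K1 spans chr17:33996017-34000347 on the minus strand, H2-Q2 chr17:35342242-35346762 on the plus strand and H2-T23 chr17:36029773-36032855 on the minus strand, and B2m spans chr2:122147686-122153083 on the plus strand. Of 127 other tested genes from 1 Mb before H2-K1 to 1 Mb after H2-T22, 31 passed the test (24.4%, beside 18.0% of all genes), of which 9 were higher in the mice labelled BCL6-insufficient and 22 lower. The median log2 fold change of the 127 genes was -0.02, against 0.01 over all genes. The 31 include Tap2, Tapbp and H2-K2, which are counted again in the lists below. They also hold genes whose exons overlap, such as Tap2 with Gm15821 and Nfkbil1 with Gm16181, so these counts are not separate results. The region median was -0.15 without BCL6-insufficient mouse 2 and -0.14 without wild-type mouse 2, against 0.00 and 0.01 over all genes in the same fits. Without any other single mouse it lay between -0.05 and -0.03.

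The tested genes next to H2-Q2 had smaller differences. The pseudogene Gm8741, 5.95 kb before it, was at 0.17 (SE 0.42, edgeR adjusted p = 0.824) and Gm11131, 30.3 kb after it, at -0.65 (SE 0.32, adjusted p = 0.166). H2-Q4, the nearest member, started 32.9 kb after its end and was at -0.23. Ltb, Nfkbil1, Gm16181 and Ddx39b were picked after their values were seen. Ltb, which encodes lymphotoxin beta, lay 148 kb before the start of H2-Q2 at -1.36 (SE 0.11, adjusted p = 3.42e-08). Nfkbil1 and Gm16181, whose exons overlap on opposite strands, lay 122 and 121 kb before it at -1.50 (SE 0.29, adjusted p = 0.000791) and -2.06 (SE 0.70, adjusted p = 0.0422). Members aside, 6 other tested genes started between Ltb and H2-Q2, of which 4 were above 0 and 1 passed the test, Ddx39b at -0.30 (SE 0.10, adjusted p = 0.031). Around H2-K1, the pseudogene H2-K2 was higher and Ring1, a Polycomb ubiquitin ligase, was at -0.63 (SE 0.27, adjusted p = 0.112). H2-T24, next to H2-T23, was at 0.15 (SE 0.21, adjusted p = 0.686), and Spg11 and Sord, next to B2m, were at -0.10 (SE 0.20, adjusted p = 0.788) and -0.16 (SE 0.34, adjusted p = 0.794).

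**Figure D4:**
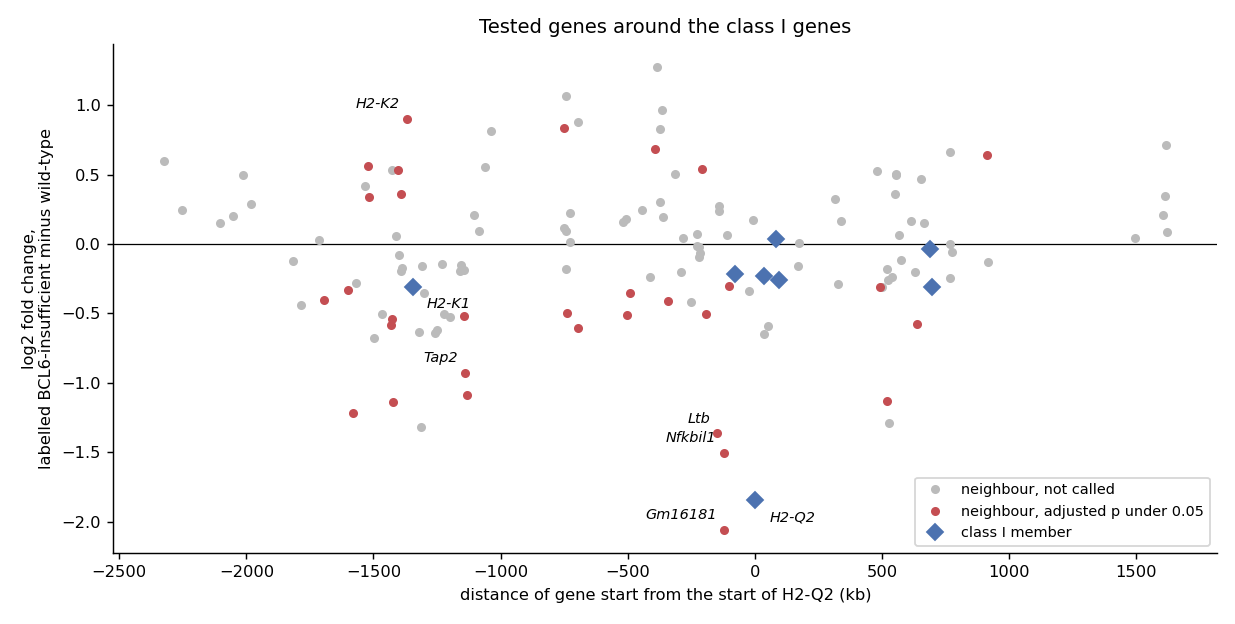
Log2 fold change of the tested genes on chromosome 17 by the distance of their start from that of H2-Q2, in kb; diamonds are the class I members and red points genes with an adjusted p under 0.05. H2-Q2 lies at -1.84 and the members on both sides of it between -0.31 and 0.04, with Ltb at -1.36 and Nfkbil1 at -1.50 about 148 and 122 kb before it.

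Peptides reach class I molecules through the transporter TAP, a dimer of Tap1 and Tap2, and a loading complex with tapasin (Tapbp), calreticulin (Calr) and Pdia3. Of 13 tested genes of peptide loading and glycan quality control, 2 rose and 4 fell in the mice labelled BCL6-insufficient (46.2%, beside 18.0% of all genes), with a median log2 fold change of -0.15. Tap2 was at 90.4, 114 and 92.3 CPM against 193, 179 and 193 CPM and fell by 0.93 on the log2 scale (SE 0.11, edgeR adjusted p = 3.94e-06). Its partner Tap1 was at -0.15 (SE 0.10, adjusted p = 0.33). Tapbp fell by 0.54 (SE 0.10, adjusted p = 0.000836) and the related peptide editor Tapbpl by 0.52 (SE 0.15, adjusted p = 0.0174), the latter a call lost without BCL6-insufficient mouse 1 or 3 or wild-type mouse 1 (adjusted p of 0.0745 to 0.0863). Prkcsh, a subunit of glucosidase II, fell by 0.40 (SE 0.12, adjusted p = 0.022), a call lost without BCL6-insufficient mouse 2, wild-type mouse 1 or wild-type mouse 3.

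Calr, a chaperone of the endoplasmic reticulum, was at 517, 407 and 439 CPM against 368, 330 and 323 CPM and rose by 0.42 (SE 0.10, adjusted p = 0.00511). Uggt1, which reglucosylates misfolded glycoproteins, rose by 0.38 (SE 0.12, adjusted p = 0.0367), a call lost without any of the mice except wild-type mouse 2 (adjusted p of 0.0702 to 0.215). The related chaperone Canx was at -0.08 (SE 0.10, adjusted p = 0.666) and Ganab, the catalytic partner of Prkcsh, at 0.07 (SE 0.13, adjusted p = 0.762). The antisense genes Gm20496 and Gm15821 overlap exons of Tap2 over 4.36 and 14.1% of its exon length, Gm19412 overlaps those of Tapbp over 24.9%, and all 3 were also lower, at -0.52, -1.09 and -1.14. Zbtb22, on the same strand as Tapbp, overlaps its exons over 4.11% and was at 0.53 (SE 0.24, edgeR adjusted p = 0.127). Without strand, reads in the parts of Tap2 and Tapbp that overlap antisense genes cannot be told apart from reads of those genes.

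**Figure D5:**
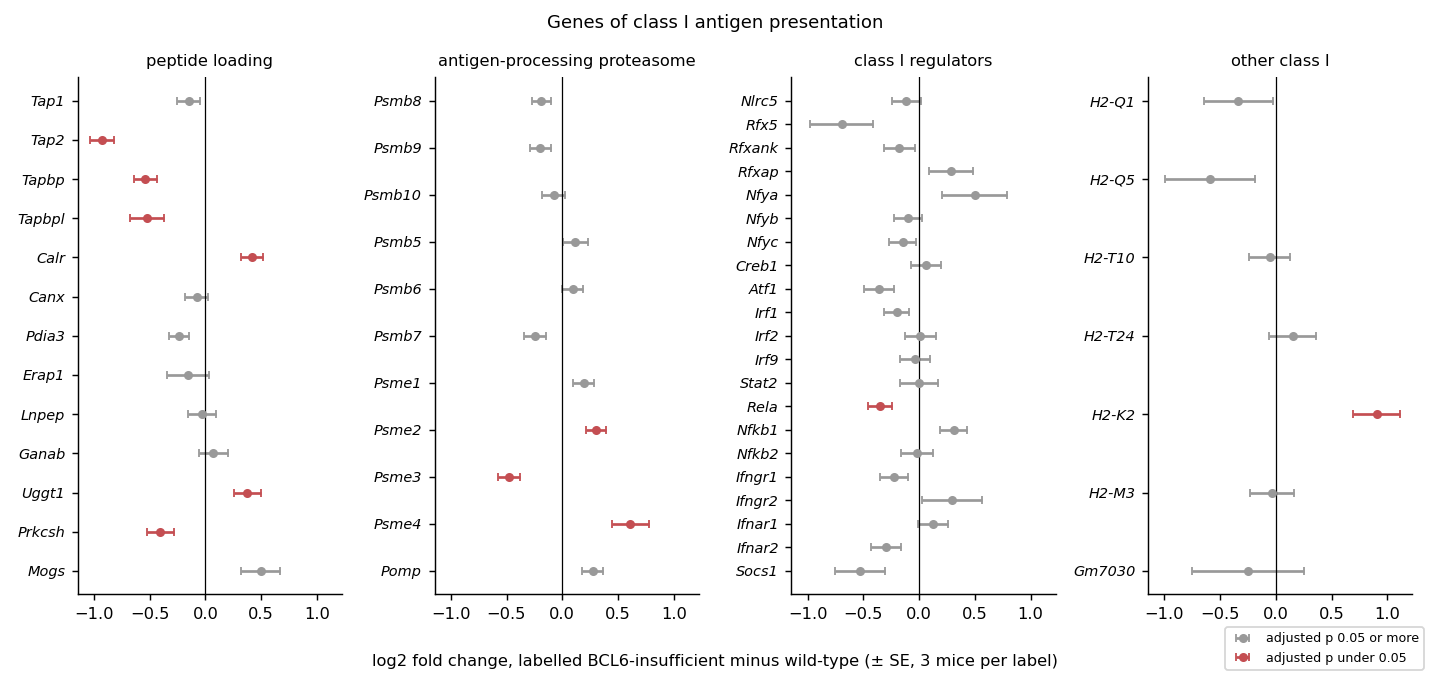
Log2 fold change with standard error (3 mice per label) of the tested genes of 4 lists of class I antigen presentation, 1 regulator not drawn; red points have an adjusted p under 0.05. In the peptide-loading list Tap2 is lowest at -0.93, with Tap1 at -0.15, and among the regulators Rela alone passes the test, at -0.35.

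Of 11 tested genes of the proteasome and its activators, 2 rose and 1 fell (27.3%, beside 18.0% of all genes). The immunoproteasome subunits Psmb8 and Psmb9, which replace constitutive subunits and are induced by interferon, were at -0.19 (SE 0.09, adjusted p = 0.154) and -0.20 (SE 0.09, adjusted p = 0.145), and Psmb10 at -0.08 (SE 0.10, adjusted p = 0.673). Changes that passed the test were among the activators: Psme2 (PA28 beta) rose by 0.30 (SE 0.09, adjusted p = 0.0205), Psme4 (PA200) rose by 0.61 (SE 0.17, adjusted p = 0.0134), and Psme3 (PA28 gamma), a nuclear activator, fell by 0.48 (SE 0.10, adjusted p = 0.00207). The call of Psme2 was lost without BCL6-insufficient mouse 1 or 3 or wild-type mouse 2 or 3 (adjusted p of 0.0575 to 0.0975), and that of Psme4 without wild-type mouse 1 or 3 (0.0605 and 0.0881).

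Of 22 tested regulators of class I transcription, 1 passed the test (4.55%, beside 18.0% of all genes). Rela, the p65 subunit of NF-kappa B, fell by 0.35 (SE 0.11, adjusted p = 0.0314), a call lost without any of the 6 mice (edgeR adjusted p of 0.0502 to 0.109). The coactivator Nlrc5 was at -0.11 (SE 0.13, adjusted p = 0.595) and Irf1 at -0.20 (SE 0.12, adjusted p = 0.245). The median of the list was -0.07.

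Of 7 further class I genes with enough counts to test, H2-K2 passed. It was at 17.4, 18.3 and 19.0 CPM against 8.43, 10.58 and 10.21 CPM and rose by 0.90 (SE 0.21, adjusted p = 0.00503), the opposite side from its neighbour H2-K1. The remaining 6 were H2-Q1 at -0.34, H2-Q5 at -0.59, H2-T10 at -0.06, H2-T24 at 0.15, H2-M3 at -0.04 and Gm7030 at -0.25, with standard errors of 0.19 to 0.50. Of 5 tested class I-like genes 0 passed in edgeR (0 at an unadjusted p under 0.05, 0 by DESeq2). Of 2 tested class I receptor genes, Cd8b1 at -0.40 and Cd160 at -0.52, 0 passed (1 at an unadjusted p under 0.05, 0 by DESeq2). Over the 6 lists 11 of 60 tested genes passed (18.3%, beside 18.0% of all genes). Without the library of highest Cd74 in each label, a choice made after seeing the data, 6 of them passed. In that fit 1342 genes in all passed, against 2288 in the main fit. The genes whose call was lost kept their direction: Tapbpl at -0.40, Prkcsh at -0.33, Rela at -0.34, Uggt1 at 0.39 and Psme2 at 0.26.

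The summed level of the 11 class II genes, which B cells and dendritic cells express, ran from 35.9 to 220 CPM under the BCL6-insufficient label and from 35.3 to 145 CPM under the wild-type label, and 0 of the 8 tested passed in edgeR (smallest adjusted p = 0.0747, 1 at an unadjusted p under 0.05, 0 by DESeq2). The B cell genes other than Ighm summed to 14.8 to 92.9 CPM and 8.03 to 68.2 CPM, and Ms4a1 (CD20) was at 0 in 5 of 6 and 4 of 6 libraries. Ighm was at 449 to 602 CPM and 572 to 868.4 CPM (log2 fold change -0.30, SE 0.10, edgeR adjusted p = 0.0511, DESeq2 adjusted p = 0.0313). The 8 genes of other lymphocytes in the table summed to 36.5 to 58.1 CPM and 46.1 to 84.1 CPM, and Nkg7, a gene of cytotoxic cells, was at 1.07 to 9.54 CPM against 0 to 3.91 CPM (log2 fold change 1.54, SE 0.54, edgeR adjusted p = 0.0494, DESeq2 adjusted p = 0.0537). The myeloid gene Lyz2 was higher with the BCL6-insufficient label (1.88 to 28.5 CPM against 0 to 2.48 CPM, log2 fold change 2.64, SE 0.63, edgeR adjusted p = 0.00531), a call that DESeq2 did not make. The 9 myeloid genes in the table summed to 95.2 to 120 CPM and 74.96 to 99.8 CPM with Cd14 at 0 throughout. The part of these cells in the class I levels was not tested. Without the library of highest Cd74 in each label, the log2 fold change of H2-Q2 was -1.80, of H2-K1 -0.29 and of B2m 0.17.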

How the data were processed

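Poly(A) RNA of about 200 cells per library was amplified with an adapted SMART-Seq2 protocol. The authors aligned reads with Hisat2 2.2.1 to GRCm38/mm10 and counted them with HTSeq-count, and the deposited counts are raw reads per gene. The annotation release, the use of strand and the handling of reads with several alignments are not given in the sources used here. The authors also deposited TPM values, used here only as an alternative on log2(TPM + 1) and log2(TPM + 0.1). Members and lists were chosen with earlier results of these data known.

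Counts were added up over the 2 repeats of a mouse. The edgeR quasi-likelihood test (version 4.0.16, R 4.3.3) was run between the labels on 6 mice after filterByExpr and TMM scaling, with Benjamini-Hochberg adjustment over 12719 genes. A standard error is the size of the log2 fold change over the root of F. The edgeR and DESeq2 fits of 6 mice and limma on log2 values were tested on simulated data with 200 genes changed 2-fold. They recovered 55.5, 60.0 and 52.5% of these genes, so a gene not called may still differ. Unchanged genes made up 4.31, 8.4 and 0.943% of the calls. Each mouse was treated as 1 replicate; where recipients shared a donor, p-values measure the spread between recipients only. Exon lengths and transcripts were those of GENCODE M21 (23801 of 24561 symbols matched), and levels per kb use the summed exon length of all transcripts. Shared sequence was counted in 75-base windows on both strands. Protein sequences were not used here, and values of some listed genes are not reported here. Genes named beside the members were the 4 called genes of smallest p in each direction per list, all tested genes of the list of further class I genes, the nearest tested neighbours of H2-K1, H2-Q2, H2-T23 and B2m, and the 3 genes most correlated with H2-Q2 and with B2m. Uncalled list genes, marker genes and region genes named beside these were chosen after their values were seen. Alternatives were DESeq2 1.42.0, other scalings and filters, limma 3.58.1 on TPM, single repeats, a replicate block and leaving out each mouse. Depth limits H2-Q4 and H2-Q6 most, at 42 to 129 counts a mouse.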

Additional observations from a re-analysis of the deposited data

Results flagged for a closer look

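Groups of 6 libraries were checked for a library far from the others, for the members and for marker sums; 26 groups were checked, and chance gives such a gap in about 1 group in 20. In the BCL6-insufficient label, B2m was at 2787 CPM in repeat 1 of mouse 3, against 2174 to 2322 CPM in the other 5 libraries, all of which were also above the wild-type libraries. That library was the shallowest of the series, with 3343375 counts. The summed class II level was 220 CPM in repeat 2 of BCL6-insufficient mouse 2, against 35.9 to 92.0 CPM in the other 5. The summed B cell level, Ighm included, was 937 CPM in repeat 2 of wild-type mouse 3, against 582 to 657 CPM in the other 5. H2-Q2 was at 33.9 and 94.4 CPM in the last 2 libraries, inside the range of its label in both cases.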

How the results depend on the processing

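The median log2 fold change of the members lay between -0.37 and -0.16 in the 17 alternatives, and H2-Q2 between -2.02 and -1.68. H2-Q4, H2-Q6 and H2-T23 took both signs. The count of genes called was 1059 and 1446 on technical repeat 1 and 2 alone, 1305 on log2(TPM + 1), 1260 on log2(TPM + 0.1), 221 on log2(TPM + 1) over all genes, 1342 without the library of highest Cd74 in each label and 1424 to 1972 without each mouse, the lowest without wild-type mouse 3. Under log2(TPM + 0.1) the median of all genes moved to -0.11. The number of genes called in the pathway lists, 11 in the report, was 4 and 7 on repeat 1 and 2 (3 and 5 of them among the 11), 7 on log2(TPM + 1) and 7 on log2(TPM + 0.1) (6 among the 11 in both), 2 on log2(TPM + 1) over all genes, 6 without the libraries of highest Cd74 and 6 to 10 without each mouse (6 to 9 among the 11, with 6 without wild-type mouse 1 or 3). Of the 17 alternatives, Uggt1 and Rela passed in 6 each, Psme2 in 8, Tapbpl in 9, Prkcsh in 10, Psme4 in 11, Calr in 13, H2-K2 in 14, Tapbp in 15, Psme3 in 16 and Tap2 in 17. Of the chromosome 17 neighbours, 13 passed on repeat 1, 6 on log2(TPM + 1) over all genes and 21 to 28 without each mouse. Their median ran from -0.18 on log2(TPM + 0.1) to 0.02 with upper-quartile scaling. The median share of windows held in common was 16.1, 5.09 and 2.56% at 50, 100 and 150 bases, against 8.07% at 75. DESeq2 called 2424 genes. Deviations of same-numbered mice from their label mean had r of 0.09, -0.03 and 0.02. With 3 mice per label these values cannot decide whether the numbers pair the mice. With a replicate block 2579 genes passed, with a member median of -0.24. The order of levels kept 5 to 7 of 8 steps in every mouse. The causes were not tested.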

Other observations

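Over the 12 libraries, after the mean of each label was removed, the 36 pairs of members had a median Pearson r of 0.15, from -0.58 to 0.71, as a description over libraries that share mice and depth. With H2-Q2 the other members ran from -0.58 (H2-Q7) to 0.35 (H2-T23). The genes most like H2-Q2 in that pattern were Msra (r = 0.90), Slc12a7 (r = 0.88) and Gm37520 (r = 0.88), whose log2 fold changes between the labels were -0.83, 0.17 and 0.43. Those most like B2m were Fam221b (r = 0.94), Gm14303 (r = 0.92) and Tmx2 (r = 0.91), at 0.50, 0.76 and 0.06. Technical repeats of H2-Q2 differed with an SD of 0.35 on the log2 scale, against a median of 0.22 over 1865 genes of like level, and those of H2-Q7 with an SD of 0.11 against 0.21.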
